A study of Mus musculus with 8 samples.

Results

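The genes of cholesterol and fatty acid synthesis, together with the factors that switch them on, were followed in mouse bone marrow-derived macrophages (BMDMs) with and without Trex1, the exonuclease that clears DNA from the cytosol. They were taken as a list of 33 gene symbols, each matched to its Ensembl identifier among the 54532 genes in the count data, and all 33 had enough reads to be tested. The list holds 4 transcription factors and sterol sensors, 8 enzymes from acetyl units through mevalonate to squalene, 10 enzymes from squalene to cholesterol, 8 enzymes of fatty acid synthesis and desaturation, and 3 genes of sterol transport, esterification and oxysterol synthesis. Polyadenylated RNA was sequenced in 8 libraries, 2 in each of 4 groups: wild-type (WT) BMDMs, Trex1-/- BMDMs (Trex1-KO), Trex1-KO BMDMs given H151 and Trex1-KO BMDMs given SN-011, the last 2 being small molecules that block the adaptor STING. The macrophages of every group came from leg bones of mice aged 6 to 8 weeks, grew for 7 days in L929-conditioned medium and then spent 12 h with antagonist or with the vehicle DMSO. The labels give H151 at 500 nM and no SN-011 dose, and they name neither sex nor how many animals stand behind a library. The study describes its mice as C57BL/6J and the libraries of a group as separate experiments.

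Cholesterol is built from acetyl units by way of mevalonate, squalene and lanosterol, and long-chain fatty acids are built and then desaturated by a second set of enzymes. Both sets are switched on by the sterol regulatory element-binding proteins, SREBP1 and SREBP2, encoded by Srebf1 and Srebf2. When sterols are plentiful, the Insig proteins hold the SREBPs in the endoplasmic reticulum, so transcripts of these enzymes fall, while the liver X receptors (LXRs) switch on genes that export cholesterol. Macrophages are known to change this balance when they take up lipid or respond to interferon.

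Depth lay between 11845470 and 17284863 counts per library. Levels are given as CPM, counts rescaled to the same library size by TMM, which sets a factor for each library. On this scale 1 count was worth between 0.0582 and 0.0849. No read was counted for Trex1 in any library (0 counts in all 8, also in WT), so the knockout could not be checked and the genotype rests on the labels. The 8 macrophage markers summed to between 29981.3 and 32153.1 CPM in all libraries. Most of this sum was Lyz2, at 20296.3 to 23079.1 CPM, so it says little about the other markers. Dendritic cell markers summed to between 1.69 and 3.70 CPM, lymphocyte markers to between 0.403 and 0.857 CPM and markers of cycling cells to between 195 and 256 CPM. Markers on several of these lists, stromal and neutrophil markers above all, differed by genotype and are given with the first comparison. The Y-linked genes Ddx3y, Eif2s3y, Kdm5d and Uty were between 2.54-fold and 3.13-fold higher in the WT than in the knockout libraries, and other differences between the animals cannot be told apart from loss of Trex1. The SN-011 libraries carry a treatment text of their own, and a batch limited to them cannot be told apart from SN-011.

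Promoter sequence was taken from a set of RefSeq windows (mouse build GRCm38.p6), each from 250 bases before to 50 bases after the transcription start. The set held a window for 26 of the 33 members. It had none for Sqle, Scd1, Scd2, Fads1, Fdps, Fdft1 and Stard4, which does not mean that RefSeq lacks these genes. The sequences below are shown because the sterol regulatory element, bound by SREBP, and the NF-Y and GC boxes beside it are the letters through which this pathway is known to be switched on. A sterol regulatory element spelled TCACNCCAC was searched on both strands, and only Hmgcs1, the synthase that makes HMG-CoA, held it. The stretch around it lies at chr13:119690174-119690262 on the plus strand, with the element in capitals, its first base at -137 from the start.
Hmgcs1: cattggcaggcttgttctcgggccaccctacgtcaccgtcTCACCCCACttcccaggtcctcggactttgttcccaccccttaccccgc

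The element was thus found in 3.85% of the members with a window (1 of 26), against 1.44% of all 27025 genes in the RefSeq table and 1.43% of the 10379 tested genes with a window. The NF-Y box CCAAT was held by 80.8% of members (21 of 26), 41.1% of all genes and 42.8% of tested genes. The GC box GGGCGG was also held by 80.8% of members (21 of 26), against 38.2% of all genes and 67.1% of tested genes. An E-box CACGTG occurred in 15.4% of members, 8.09% of all genes and 11.5% of tested genes, and the interferon-response letters GAAANNGAA in 3.85%, 9.76% and 9.0%. These matches describe letters in the windows and are not measured binding sites.

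For the members that were lower in Trex1-KO and have a window, the 160 bases before the start are printed with each CCAAT and GGGCGG, on either strand, in capitals. They are Insig1 at chr5:28071252-28071411 on the plus strand, Mvd at chr8:122443423-122443582 on the minus strand, Cyp51 at chr5:4104698-4104857 on the minus strand, Sc5d at chr9:42264301-42264460 on the minus strand, Fasn at chr11:120824548-120824707 on the minus strand and Fads2 at chr19:10101504-10101663 on the minus strand. In Fasn a CCAAT on one strand overlaps another on the opposite strand, which the 8 capitals in a row show.
Insig1: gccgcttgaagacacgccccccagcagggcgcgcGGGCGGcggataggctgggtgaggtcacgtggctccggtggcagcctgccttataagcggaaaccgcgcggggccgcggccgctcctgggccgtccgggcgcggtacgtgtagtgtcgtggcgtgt
Mvd: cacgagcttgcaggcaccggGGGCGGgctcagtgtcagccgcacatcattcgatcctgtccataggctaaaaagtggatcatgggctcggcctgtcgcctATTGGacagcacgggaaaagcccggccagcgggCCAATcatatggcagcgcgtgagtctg
Cyp51: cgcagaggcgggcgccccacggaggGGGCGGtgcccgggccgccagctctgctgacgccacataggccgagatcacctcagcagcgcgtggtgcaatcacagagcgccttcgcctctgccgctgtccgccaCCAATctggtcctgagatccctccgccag
Sc5d: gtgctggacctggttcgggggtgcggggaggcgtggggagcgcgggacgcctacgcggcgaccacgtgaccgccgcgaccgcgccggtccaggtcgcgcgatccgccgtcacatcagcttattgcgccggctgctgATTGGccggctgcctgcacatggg
Fasn: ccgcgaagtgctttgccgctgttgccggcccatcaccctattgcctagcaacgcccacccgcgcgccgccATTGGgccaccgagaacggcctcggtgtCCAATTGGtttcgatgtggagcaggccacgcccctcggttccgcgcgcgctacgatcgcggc
Fads2: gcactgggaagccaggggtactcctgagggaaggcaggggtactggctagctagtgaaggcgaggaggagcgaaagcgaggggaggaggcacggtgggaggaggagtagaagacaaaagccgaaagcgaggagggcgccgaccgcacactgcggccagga

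Mvd and Fasn carried more than 1 CCAAT in these bases, Cyp51 and Sc5d carried 1, and Insig1 and Fads2 carried none. No GC box lay there in Sc5d, Fasn or Fads2.

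Trex1-KO was compared with WT to ask how macrophages lacking Trex1 differ in these genes. In Trex1-KO, 11 of 33 members fell, 22 were not called and 0 rose at an adjusted p under 0.05 (edgeR quasi-likelihood test, adjusted over all 14591 tested genes). A gene is said to be called, or not, by this test unless another is named. Over all tested genes, 7.11% were called lower and 9.27% higher. The falls were modest, from 14.5% for Fads1 to 42.6% for Fads2, and 29 of 33 members had a log2 fold change below 0. The median log2 fold change was -0.22 over the members and -0.00 over all tested genes, of which 50.5% lay below 0. At an unadjusted p under 0.05, 14 members were lower and 1 (Soat1) was higher. DESeq2 called 7 of the 11 lower, leaving out Mvd, Sc5d, Sqle and Fads2 (adjusted p = 0.148, 0.0619, 0.139 and 0.0608), while edgeR's exact test called 12 lower, and neither called a member higher. Over all 14591 tested genes, DESeq2 called 1838 in either direction and the exact test 2639, beside 2390 by the quasi-likelihood test. Because these are bulk libraries, fewer cells of a type and less RNA per cell cannot be told apart.

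**Figure D1:**
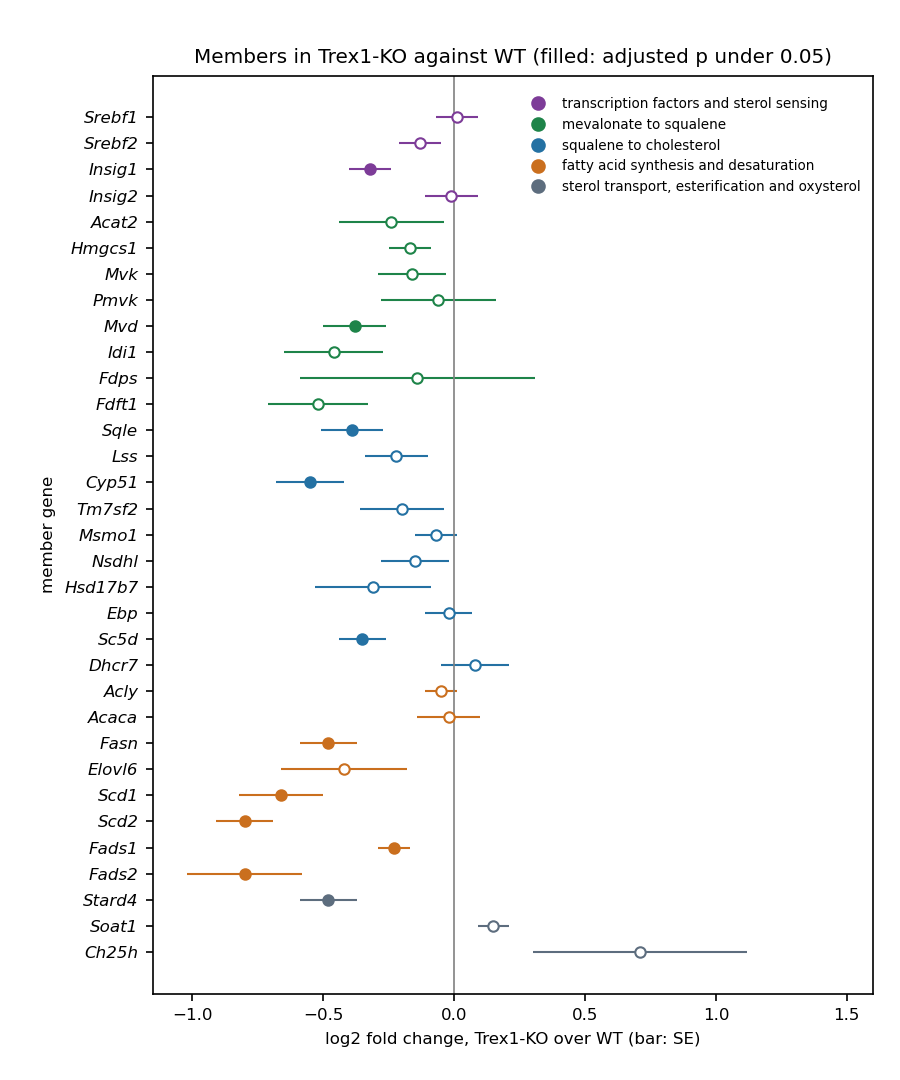
Log2 fold change of each of the 33 members in Trex1-KO over WT (x axis), with SE bars, listed and coloured by role (y axis). Filled points passed an adjusted p of 0.05. All 11 filled points lie left of 0, and the largest falls are those of the desaturase genes Scd2 and Fads2, both at -0.80.

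In 22 members both Trex1-KO libraries lay below both WT libraries, as they did for 27.5% of all tested genes. In 2 members both lay above. The share of all genes above was not taken, so that count cannot be read as few or many. All 6 knockout libraries, with or without antagonist, lay below both WT libraries for 13.7% of all tested genes and for 18 members, namely Srebf2, Insig1, Acat2, Hmgcs1, Mvk, Mvd, Idi1, Fdft1, Sqle, Cyp51, Msmo1, Sc5d, Fasn, Scd1, Scd2, Fads1, Fads2 and Stard4.

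**Figure D2:**
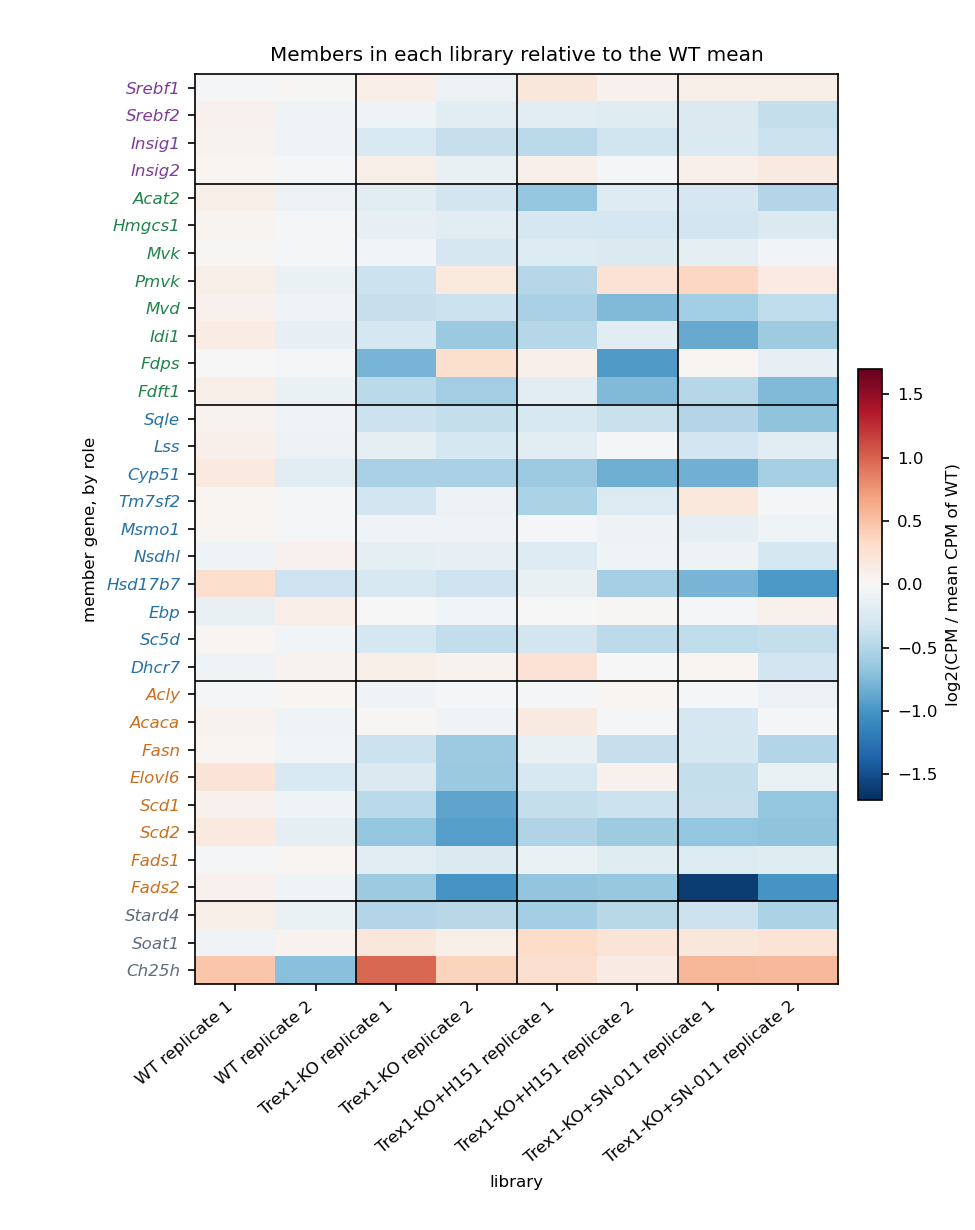
Level of each of the 33 members (rows, grouped and coloured by role) in each of the 8 libraries (columns), as the log2 of its CPM over the mean CPM of the 2 WT libraries. Blue is below and red above the WT mean. The blue block runs across all 6 knockout libraries for Insig1, Mvd, Cyp51, Sc5d, Scd1, Scd2, Fads2 and Stard4, whereas Ebp, Acly and Msmo1 stay pale throughout.

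Among the 4 regulators, 1 fell. Insig1 (ENSMUSG00000045294, chromosome 5, 28071363 to 28078662) retains SREBP in the endoplasmic reticulum and is itself a target of SREBP. It was measured at 82.4 and 75.4 CPM in the WT libraries and at 66.1 and 60.2 CPM in the Trex1-KO libraries. The groups did not overlap, and the log2 fold change was -0.32 ± 0.08 (SE, n = 2 per group) at an edgeR adjusted p of 0.013. The other three regulators were not called: Srebf1 had a log2 fold change of 0.01, Insig2 of -0.01 and Srebf2 of -0.13. The level of Srebf1 ran from 70.5 to 72.4 CPM in WT and from 67.0 to 77.0 CPM in Trex1-KO, so that the Trex1-KO libraries spanned the WT libraries.

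In the mevalonate stretch, which supplies isoprenoids as well as sterols, all 8 members had a log2 fold change below 0 and 1 fell. Mvd (ENSMUSG00000006517, chromosome 8, 122433601 to 122443422), the decarboxylase that makes isopentenyl diphosphate, was at 23.4 and 21.2 CPM in WT and at 17.0 and 17.3 CPM in Trex1-KO. Both knockout libraries lay below both WT libraries, at a log2 fold change of -0.38 ± 0.12 (SE) at an edgeR adjusted p of 0.0441. Hmgcs1, whose promoter element is shown above, was at 57.1 and 54.0 CPM in WT and at 50.2 and 48.5 CPM in Trex1-KO. Its groups did not overlap, and its log2 fold change of -0.17 ± 0.08 was not called (edgeR adjusted p = 0.161), except when libraries were scaled by total counts only (adjusted p = 0.0335).

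The remaining mevalonate members were not called, although Fdft1 was called lower by edgeR's exact test (adjusted p = 0.0485) and by quasi-likelihood fits with the replicate block, with only the 2 groups, with total counts only and with a filter at 1 count (adjusted p = 0.0275, 0.0327, 0.0392 and 0.016). Log2 fold changes were -0.52 for Fdft1, the squalene synthase, -0.46 for the isomerase Idi1, -0.24 for Acat2, which joins acetyl units, -0.16 for the kinase Mvk, -0.14 for the farnesyl diphosphate synthase Fdps and -0.06 for the kinase Pmvk. Several of these counts are uncertain, since 91.4% of the Fdps transcript, 65.6% of Acat2, 54.7% of Fdft1 and 33.3% of Idi1 is at least 95% identical to another gene and the study counted uniquely mapped reads. Fdps had between 10 and 24 counts per library.

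From squalene to cholesterol, 3 of 10 members fell and 9 of 10 had a log2 fold change below 0. Cyp51 (ENSMUSG00000001467, chromosome 5, 4081145 to 4104746), the lanosterol demethylase, was at 39.6 and 31.2 CPM in WT and at 24.2 and 24.1 CPM in Trex1-KO. The WT libraries differed from each other by more than the Trex1-KO libraries did, and both lay above them. The log2 fold change was -0.55 ± 0.13 (SE) at an edgeR adjusted p of 0.00875.

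Sc5d (ENSMUSG00000032018, chromosome 9, 42251595 to 42264256), a desaturase of the sterol ring, was at 38.4 and 36.3 CPM in WT and at 30.5 and 28.1 CPM in Trex1-KO, a log2 fold change of -0.35 ± 0.09 (SE) at an edgeR adjusted p of 0.0178. Sqle (ENSMUSG00000022351, chromosome 15, 59315077 to 59331192), the epoxidase that commits squalene to sterols, was at 22.0 and 20.4 CPM in WT and at 16.4 and 16.0 CPM in Trex1-KO, a log2 fold change of -0.39 ± 0.12 (SE) at an edgeR adjusted p of 0.0379. Neither gene's groups overlapped.

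The other seven enzymes of this stretch were not called. Their log2 fold changes were -0.31 for Hsd17b7, -0.22 for the lanosterol synthase Lss, -0.20 for the sterol reductase Tm7sf2, -0.15 for Nsdhl, -0.07 for Msmo1, -0.02 for the isomerase Ebp and 0.08 for Dhcr7, the reductase of the last step. Hsd17b7 was at 10.2 and 6.57 CPM in WT, so that its WT libraries spanned the higher Trex1-KO library at 6.94 CPM. The 95% interval of the log2 fold change was -0.23 to 0.10 for Msmo1 and -0.23 to 0.18 for Ebp.

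Fatty acid synthesis and desaturation held the largest share of calls, with 5 of 8 members lower and a median log2 fold change of -0.45. Scd2 (ENSMUSG00000025203, chromosome 19, 44293674 to 44306864), a stearoyl-CoA desaturase that makes monounsaturated fatty acids, was at 113 and 89.9 CPM in WT and at 64.1 and 52.7 CPM in Trex1-KO. Its groups were well apart, at a log2 fold change of -0.80 ± 0.11 (SE) at an edgeR adjusted p of 0.000142. Scd1 (ENSMUSG00000037071, chromosome 19, 44394455 to 44407879), its neighbour and paralog, was at 17.1 and 15.4 CPM in WT and at 11.8 and 8.70 CPM in Trex1-KO, a log2 fold change of -0.66 ± 0.16 (SE) at an edgeR adjusted p of 0.0114. A stretch at least 95% identical to Scd1 covers 11.4% of the Scd2 transcript, and how its reads were assigned was not tested.

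The desaturases of polyunsaturated fatty acids, also neighbours on chromosome 19, were lower too. Fads2 (ENSMUSG00000024665, 10062765 to 10101746), which takes the first desaturation step, was at 8.61 and 7.79 CPM in WT and at 5.36 and 4.09 CPM in Trex1-KO, a log2 fold change of -0.80 ± 0.22 (SE) at an edgeR adjusted p of 0.0219. Fads1 (ENSMUSG00000010663, 10182888 to 10196877), which acts later in the same route, was at 150 and 155 CPM in WT and at 133 and 128 CPM in Trex1-KO, a log2 fold change of -0.23 ± 0.06 (SE) at an edgeR adjusted p of 0.0199. For both genes the groups were apart.

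Fasn (ENSMUSG00000025153, chromosome 11, 120805846 to 120824547), the fatty acid synthase, was at 59.3 and 56.1 CPM in WT and at 45 and 37.7 CPM in Trex1-KO, a log2 fold change of -0.48 ± 0.11 (SE) at an edgeR adjusted p of 0.00716. Upstream of it, Acly, which cleaves citrate to acetyl-CoA, and Acaca, the acetyl-CoA carboxylase, were not called, at -0.05 ± 0.06 and -0.02 ± 0.12 on the log2 scale. The intervals of 95% were -0.18 to 0.08 for Acly and -0.26 to 0.23 for Acaca, and 64.3% of the Acaca transcript has a near-identical copy. The elongase Elovl6 was not called at -0.42 ± 0.24, with WT libraries at 6.55 and 4.68 CPM and Trex1-KO libraries at 4.75 and 3.63 CPM that overlapped.

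Of the 3 genes of sterol handling, Stard4 (ENSMUSG00000024378, chromosome 18, 33199355 to 33213862), a carrier of cholesterol between membranes, fell. It was at 34.7 and 30.0 CPM in WT and at 22.9 and 23.3 CPM in Trex1-KO, which did not overlap, at a log2 fold change of -0.48 ± 0.11 (SE) at an edgeR adjusted p of 0.00658. Soat1, which esterifies cholesterol for storage, was at 430 and 466 CPM in WT and at 511 and 481 CPM in Trex1-KO. Both Trex1-KO libraries lay above both WT libraries, and the log2 fold change of 0.15 ± 0.06 was not called (edgeR adjusted p = 0.132). Ch25h, which makes an oxysterol, had between 11 and 32 counts per library and a log2 fold change of 0.71 ± 0.41 that was not called (edgeR adjusted p = 0.297).

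**Figure D3:**
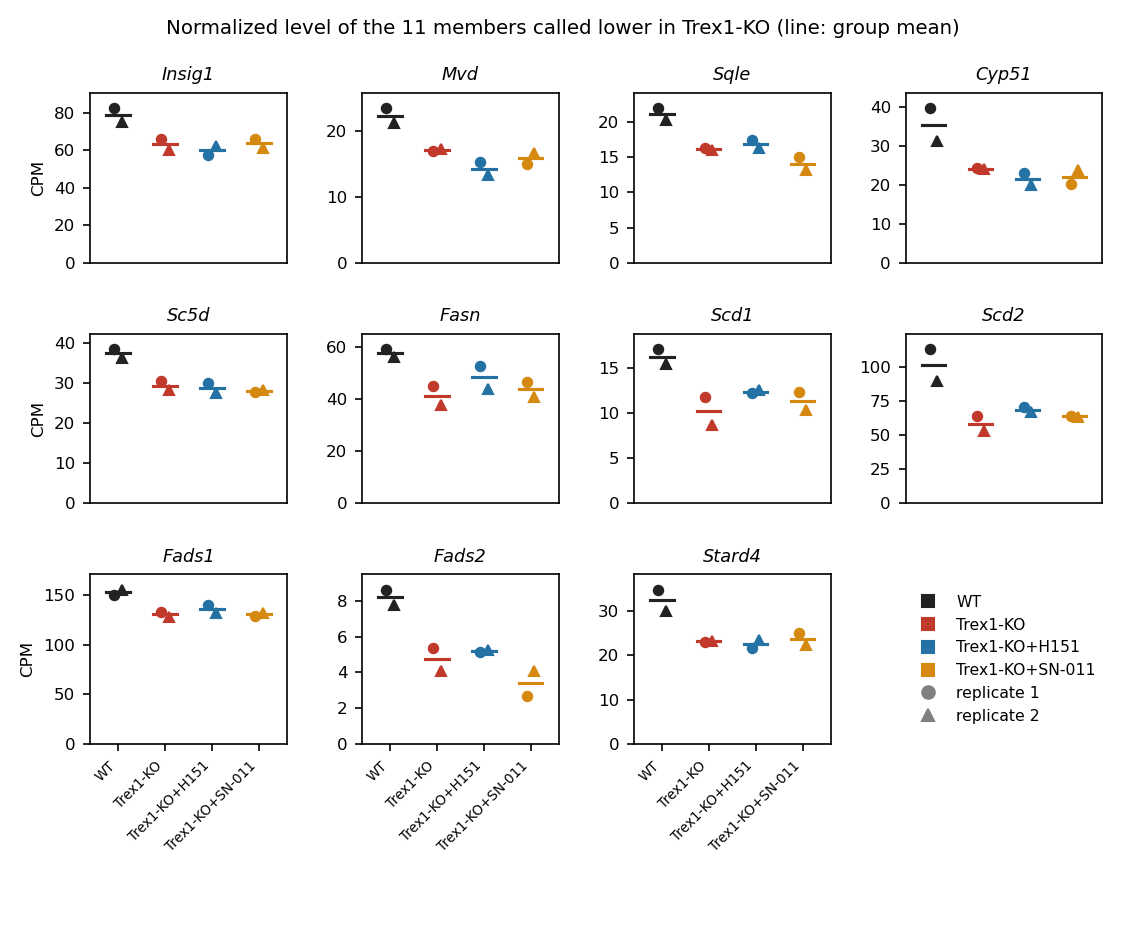
CPM (y axis, from 0) of the 11 members that fell in Trex1-KO, in each library of the 4 groups (x axis). Circles are replicate 1, triangles replicate 2 and lines group means. In every panel the 6 knockout libraries lie below both WT libraries, and the antagonist-treated libraries lie near the Trex1-KO libraries.

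The 4 called desaturase genes of fatty acids sit on chromosome 19 in neighbouring pairs, and the other called members are spread over chromosomes 5, 8, 9, 11, 15 and 18. Exons of Cyp51 and Scd2 overlap those of another gene over 3.76% and 1.12% of their length, and the other nine called members overlap none. Per kilobase of exon, the highest mean levels in WT were those of Soat1 at 45.8 CPM per kb, Fads1 at 31.6, Acly at 28.2, Insig1 at 25.5 and Scd2 at 18.6. The lowest were those of Fdps at 0.310, Elovl6 at 0.873 and Ch25h at 0.879 CPM per kb. The mean of Scd2 in Trex1-KO was 10.7 CPM per kb.

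The number of calls rested on single libraries. Without WT replicate 1, in which 10 of the 11 called members were higher than in WT replicate 2 (52.5% of all tested genes were), only Scd2 was called. Over all genes, 1556 of 15226 tested were called without that library and 2390 of 14591 with it. Without Trex1-KO replicate 2 only Cyp51, Scd2 and Stard4 were called, and without WT replicate 2 fewer members were called than with all libraries. Fewer genes were also called over the whole data in both of these fits. No called member changed sign in any of these fits, in which the lone library of a group is assumed to vary like the others.

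Markers of other cells moved with genotype. The 8 stromal cell markers summed to 2541.1 and 2802.2 CPM in WT. In Trex1-KO the sums were lower, at 1055.4 and 1312.6 CPM, and they were 1362.0 and 1498.0 CPM with H151 and 1173.8 and 1378.9 CPM with SN-011. Of these markers 6 fell in Trex1-KO, among them Col1a1 by a log2 fold change of -1.07 ± 0.11 (SE, adjusted p = 1.11e-05 by edgeR), 0 rose and none was at 0 in every library. The other two did not share the fall: Dcn was at 1.77 and 2.58 CPM in WT and at 3.09 and 2.90 CPM in Trex1-KO and was not called, and Lum was too low to be tested. The 8 neutrophil markers summed to between 8.68 and 9.64 CPM in WT and between 64.5 and 98.6 CPM in the knockout libraries, and 5 of them rose in Trex1-KO. Of these 5, Camp, Ngp and Ltf lie on chromosome 9, as Trex1 does, and S100a8 and S100a9 on chromosome 3. The part of sequence linked to Trex1 was not tested. Ly6g and Elane had 0 counts in both WT libraries. The dendritic cell sums were 2.72 and 1.69 CPM in WT and between 2.93 and 3.70 CPM in the knockout libraries, and Xcr1 and Clec9a rose in Trex1-KO by 2.88 and 2.60 on the log2 scale. Zbtb46 of the same list was lower and not called, at 1.91 and 0.949 CPM in WT and 0.604 and 0.528 CPM in Trex1-KO, and Flt3 had at most 9 counts in any library. The macrophage markers Fcgr1, Cd68 and Adgre1 rose by 1.14, 0.44 and 0.19, and Pcna, a marker of cycling cells, by 0.21.

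Within the 4 groups, the replicate with the higher stromal sum was also the higher one for the member in all 4 groups for 3 of the 11 called members (Sqle, Fasn and Scd2) and for 4 of the other 22, against 8.11% of all tested genes. In WT, replicate 1 had the higher stromal sum. There 10 of the 11 called members were also higher, against 52.5% of all tested genes. The 8.11% is therefore not a matched background, and with 2 libraries per group these counts are a description only. Defining adipocyte markers, which would mark cells of high lipid synthesis, were near 0: Lep had 0 counts in every library, Adipoq at most 2, Cidec and Cfd at most 1 and Plin1 at most 4, while Lipe, which other cells also express, had between 238 and 365 and rose in Trex1-KO by 0.36 on the log2 scale (edgeR adjusted p = 0.0362). The part of stromal cells, neutrophils and dendritic cells in the lower sterol and fatty acid transcripts was not tested.

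Of the other genes of the pathway, taken as 5 fixed lists of 45 genes, 43 were tested (Cyp7b1 and Soat2 were too low), and 6 rose and 2 fell in Trex1-KO. In the LXR list 2 of 8 genes rose and 1 fell. Nr1h3, which encodes LXR-alpha, was at 13.0 and 10.7 CPM in WT and at 30.0 and 30.8 CPM in Trex1-KO, a log2 fold change of 1.36 ± 0.12 (SE) at an edgeR adjusted p of 1.80e-06. Abcg1, the LXR target that exports cholesterol, was at 175 and 173 CPM in WT and at 267 and 265 CPM in Trex1-KO, a log2 fold change of 0.61 ± 0.06 (SE) at an edgeR adjusted p of 3.70e-06. The partner receptor Rxra fell, from 210 and 231 CPM to 153 and 157 CPM, with a log2 fold change of -0.51 ± 0.06 (SE) at an edgeR adjusted p of 8.20e-05. The other five LXR genes were not called, among them the exporter Abca1 at 0.05 ± 0.05 (edgeR adjusted p = 0.597).

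**Figure D4:**
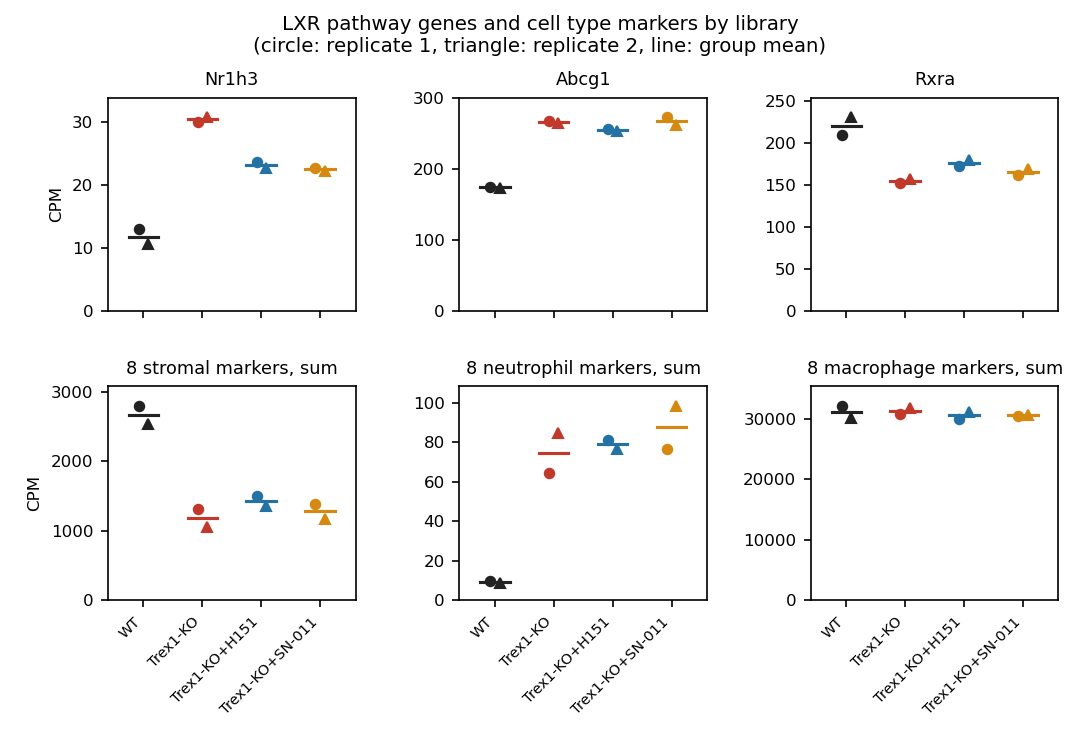
CPM (y axes, from 0) of Nr1h3, Abcg1 and Rxra, and the summed CPM of 8 stromal, 8 neutrophil and 8 macrophage markers, in each library of the 4 groups (x axes). Circles are replicate 1, triangles replicate 2 and lines group means. Nr1h3, Abcg1 and the neutrophil sum lie higher, and Rxra and the stromal sum lower, in all 6 knockout libraries than in WT. The macrophage sums, which are mostly Lyz2, lie between 29981.3 and 32153.1 CPM.

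Among 16 further genes of fatty acid and glycerolipid metabolism 2 rose and 1 fell. The fall was that of Me1, the malic enzyme that supplies NADPH for fatty acid synthesis, from 11.1 and 12.1 CPM in WT to 6.79 and 6.53 CPM in Trex1-KO (log2 fold change -0.80 ± 0.17, edgeR adjusted p = 0.00393). Acsl1 and Acsl4, which activate fatty acids, rose by 0.47 and 0.29 on the log2 scale (edgeR adjusted p = 0.00313 and 0.00564). In the oxysterol and sterol handling list 2 of 6 tested genes rose, the lysosomal Npc2 and Lipa, at log2 fold changes of 0.21 and 0.23, though Npc2 was called by neither edgeR's exact test nor DESeq2 (adjusted p = 0.0589 and 0.0515). The exact test added a fall of Acsl3, which activates fatty acids (adjusted p = 0.0395).

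None of the 8 genes that process or turn over SREBP, among them Scap at a log2 fold change of 0.00 ± 0.09, was called by edgeR's quasi-likelihood test or DESeq2. By edgeR's exact test 1 was called higher, and at an unadjusted p under 0.05 there were 3, all higher. The 5 genes of isoprenoid side branches also held 0 calls by the quasi-likelihood test and DESeq2, with 1 higher by the exact test and 1 higher at an unadjusted p under 0.05.

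H151 and SN-011 were each compared with vehicle-treated Trex1-KO cells to ask whether blocking STING for 12 h moved these genes. Neither antagonist moved a member past the threshold. For H151, 0 of 33 members were called by edgeR's quasi-likelihood test, its exact test or DESeq2, and 0 had an unadjusted p under 0.05, against 2.23% of all tested genes called in either direction. For SN-011, 0 of 33 were called by the same 3 tests and 2 members, Srebf2 and Hsd17b7, were lower at an unadjusted p under 0.05, against 2.33% of all tested genes called. DESeq2 gave no adjusted p for 1 member under H151. The median log2 fold change over the members was 0.03 for H151 and -0.02 for SN-011, beside 0.00 and 0.01 over all tested genes.

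**Figure D5:**
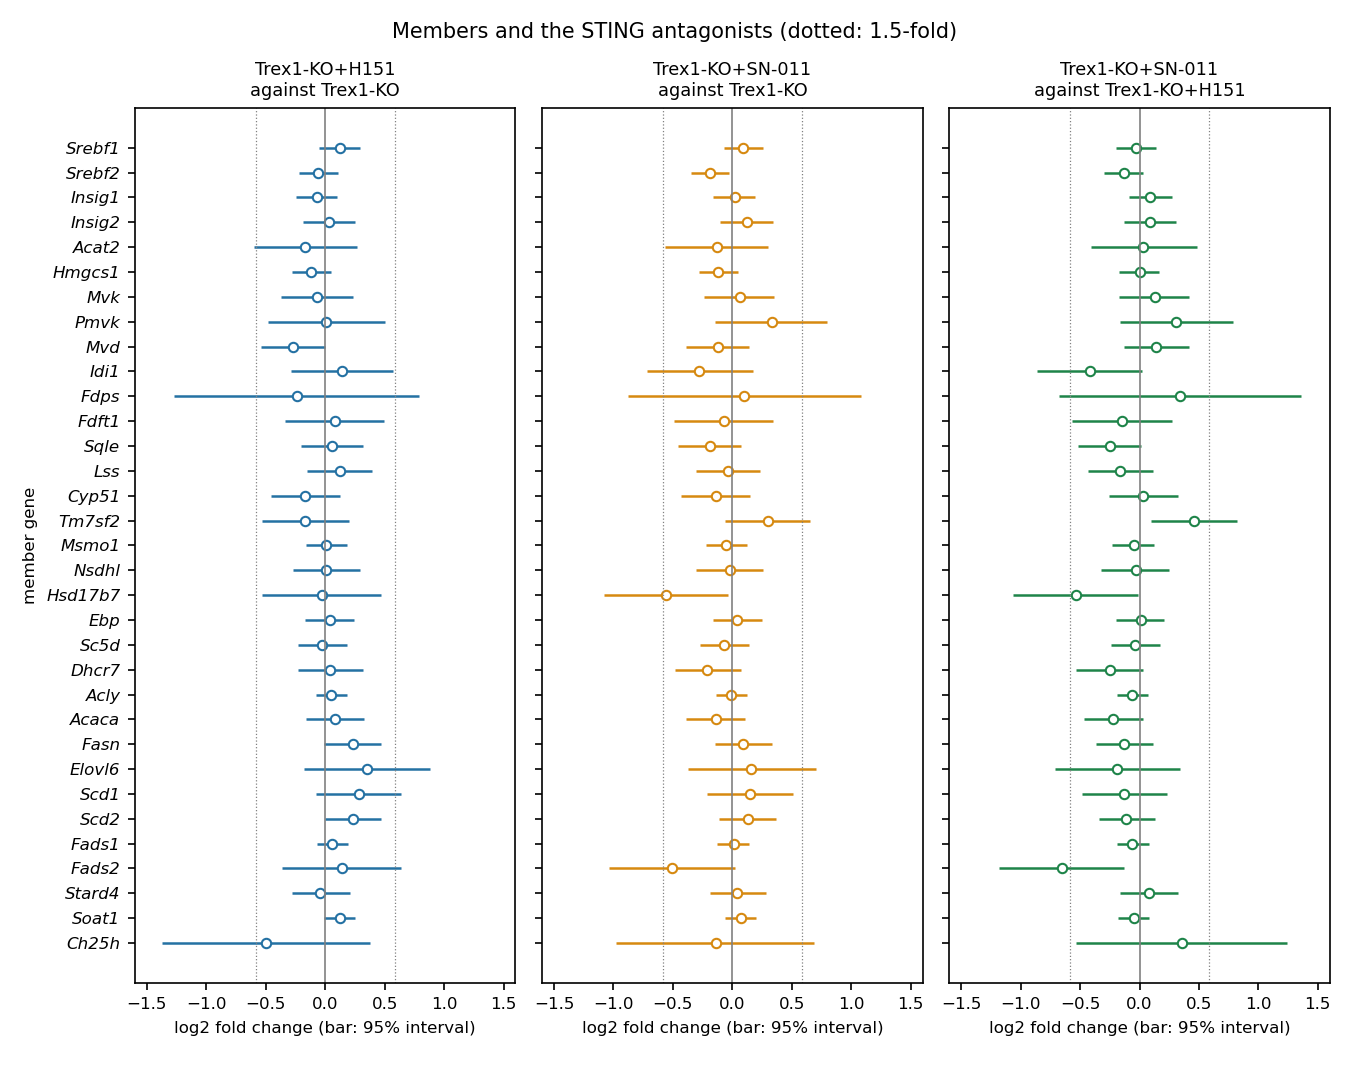
Log2 fold change (x axes) with 95% intervals for each of the 33 members (y axis) in Trex1-KO+H151 against Trex1-KO (left), Trex1-KO+SN-011 against Trex1-KO (middle) and Trex1-KO+SN-011 against Trex1-KO+H151 (right). Dotted lines mark 1.5-fold. Open points were not called, which is all of them, and the widest intervals are those of Fdps and Ch25h.

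The precision differed between members. The 95% interval lay within 1.5-fold in both directions for 27 of 33 members with H151, with Acat2, Fdps, Elovl6, Scd1, Fads2 and Ch25h wider. It did so for 25 of 33 with SN-011, with Pmvk, Idi1, Fdps, Tm7sf2, Hsd17b7, Elovl6, Fads2 and Ch25h wider. Among the 11 members that fell in Trex1-KO, 6 log2 fold changes lay above 0 and 5 below 0 with either antagonist, from -0.27 to 0.28 with H151 and from -0.51 to 0.15 with SN-011. These comparisons share the Trex1-KO libraries with the comparison against WT.

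The values of the fatty acid genes show the sizes involved. Scd2 was at 70.6 and 66.6 CPM with H151 and at 64.2 and 63.1 CPM with SN-011, beside 64.1 and 52.7 CPM in vehicle-treated Trex1-KO cells. Its log2 fold change against Trex1-KO was 0.23 (95% interval -0.00 to 0.47) with H151 and 0.13 (-0.11 to 0.37) with SN-011. Fasn was at 53.0 and 43.8 CPM with H151 and at 46.7 and 41.0 CPM with SN-011, which overlapped its Trex1-KO values of 45 and 37.7 CPM. With H151 all 8 fatty acid members had a log2 fold change above 0, from 0.05 to 0.35, and with SN-011 5 of 8 did, and none of these was called. All 7 tested stromal markers also lay above 0 with either antagonist, with a median of 0.24 with H151 and 0.13 with SN-011 and no calls, and their part in the fatty acid values was not tested.

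Log2 fold changes of the sterol enzymes lay on both sides of 0, from -0.56 for Hsd17b7 to 0.33 for Pmvk with SN-011, neither of them called. Cyp51 was at 23.1 and 19.9 CPM with H151 and at 20.1 and 23.9 CPM with SN-011, so that all 4 libraries lay below both Trex1-KO libraries. Mvd had the smallest unadjusted p of any member with H151, at 15.2 and 13.3 CPM (log2 fold change -0.27 ± 0.12, edgeR adjusted p = 0.535). Srebf2 had it with SN-011, at 97.3 and 86.5 CPM beside 109 and 102 CPM in Trex1-KO (log2 fold change -0.19 ± 0.08, edgeR adjusted p = 0.317).

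Of the other pathway genes, the quasi-likelihood test called 1 between an antagonist and Trex1-KO, and edgeR's exact test called 2, Acsl1 and Nr1h3, with either antagonist. Acsl1 fell with SN-011, to 52.4 and 48.2 CPM from 80.5 and 76.4 CPM in Trex1-KO (log2 fold change -0.64 ± 0.09, edgeR adjusted p = 0.00158), which overlapped its WT values of 63.0 and 50.6 CPM. With H151 it was at 60.4 and 60.7 CPM and not called by the quasi-likelihood test (adjusted p = 0.0625) but called lower by the exact test (adjusted p = 0.0142). Nr1h3 was at 23.7 and 22.7 CPM with H151 and at 22.7 and 22.3 CPM with SN-011, below both Trex1-KO libraries and above both WT libraries. Its log2 fold changes against Trex1-KO of -0.39 and -0.43 were not called by the quasi-likelihood test (adjusted p = 0.106 and 0.0582) or DESeq2 (adjusted p = 0.278 and 0.154) and were called by edgeR's exact test (adjusted p = 0.0305 and 0.00935).

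SN-011 and H151, which the study's methods give at equal doses, were compared directly as the only pair of compounds, at 12 h. No member differed between them by edgeR's quasi-likelihood test, its exact test or DESeq2, which gave no adjusted p for 8 members, and 0.158% of all tested genes were called. At an unadjusted p under 0.05, Hsd17b7 and Fads2 were lower and Tm7sf2 was higher with SN-011. Fads2 was at 2.68 and 4.08 CPM with SN-011 and at 5.13 and 5.24 CPM with H151. The groups did not overlap, and the log2 difference was -0.65 (95% interval -1.18 to -0.13, edgeR adjusted p = 0.490). Tm7sf2 was at 11.6 and 10.0 CPM with SN-011 and at 7.01 and 8.67 CPM with H151, a log2 difference of 0.46 (95% interval 0.10 to 0.82, edgeR adjusted p = 0.479).

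The interval of the difference lay within 1.5-fold for 25 of 33 members, and Pmvk, Idi1, Fdps, Tm7sf2, Hsd17b7, Elovl6, Fads2 and Ch25h were wider. All 8 fatty acid members had a log2 difference below 0, from -0.65 for Fads2 to -0.06, with a median of -0.13, while 49.2% of all tested genes lay below 0. Of the 7 tested stromal markers 5 also lay below 0, with a median of -0.11 and no calls, and their part in these differences was not tested. For the regulators and the mevalonate stretch the medians were 0.03 and 0.08, and for the steps from squalene to cholesterol -0.05.

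The antagonist-treated cells were also compared with WT, to see which members stayed apart from WT under treatment. These comparisons use the same WT libraries as Trex1-KO against WT. With H151, 7 members were lower than WT (5.04% of all tested genes) and 1 was higher (6.79% of all tested genes). With SN-011, 14 members were lower (5.57% of all tested genes) and 1 was higher (6.18% of all tested genes). Cyp51, Insig1, Mvd, Sc5d, Scd2 and Stard4 were lower than WT in all 3 knockout groups. The cycling cell markers had sums of 195 and 211 CPM in WT, 238 and 252 CPM with H151 and 239 and 256 CPM with SN-011. Of the 8, 2 were called higher with H151 (Mki67 and Pcna) and 3 with SN-011 (Mki67, Pcna and Ccnb1), and their part in the member calls was not tested.

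Hmgcs1 was called lower in both treated groups, at 45.5 and 45.3 CPM with H151 and at 44.3 and 46.6 CPM with SN-011 beside 57.1 and 54.0 CPM in WT, a log2 fold change of -0.29 in each (edgeR adjusted p = 0.024 and 0.0227). Both calls were lost with DESeq2 and when any 1 library of either group compared was left out, at adjusted p up to 0.164 with H151 and 0.199 with SN-011. With SN-011 the calls also took in Fads1, Fads2, Fasn, Sqle, Hsd17b7, Idi1 and Srebf2. Those of Fads1, Fasn, Hsd17b7 and Idi1 were lost when either SN-011 library was left out, as were the SN-011 calls of Insig1 and Sc5d. DESeq2 called neither Fads1 nor Idi1. By DESeq2, 11 members were lower than WT with SN-011 and 6 with H151. Over all 14591 tested genes, DESeq2 called 1315 with SN-011 and 1323 with H151 in either direction. The quasi-likelihood test called 1714 and 1726. Fads2 had the largest fall against WT of any member in any group, at a log2 fold change of -1.31 ± 0.23 with SN-011 (edgeR adjusted p = 0.00171). Srebf2 was lower by -0.32 ± 0.08 on the log2 scale (edgeR adjusted p = 0.0133). Scd1 was not called in either treated group (edgeR adjusted p = 0.151 with H151 and 0.0553 with SN-011), but with SN-011 it was called lower by edgeR's exact test (adjusted p = 0.0217) and Fdft1 was too (adjusted p = 0.0209). With H151 the exact test added Fads2 (adjusted p = 0.028).

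Soat1 was the only member called higher than WT, at 555 and 521 CPM with H151 and at 513 and 527 CPM with SN-011, which both lay above its WT values of 430 and 466 CPM. Its log2 fold changes were 0.26 ± 0.06 (edgeR adjusted p = 0.0109) and 0.21 ± 0.06 (edgeR adjusted p = 0.0345). Neither call was kept when libraries were scaled by total counts only, and DESeq2 did not call it with SN-011. The SN-011 call of Soat1 was also lost when either SN-011 library was left out.

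Without WT replicate 1, only Cyp51, Mvd and Scd2 were called against WT with H151, and only Fads2 and Scd2 with SN-011. Fewer members were also called against WT with SN-011 when either SN-011 library was left out. In each of these fits fewer genes were called over the whole data too. More members were called against WT with SN-011 than with H151, while the direct comparison of the compounds called 0.

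Across all 6 comparisons, 17 members were called in none by the quasi-likelihood test: Acaca, Acat2, Acly, Ch25h, Dhcr7, Ebp, Elovl6, Fdft1, Fdps, Insig2, Lss, Msmo1, Mvk, Nsdhl, Pmvk, Srebf1 and Tm7sf2. Of these, edgeR's exact test called only Fdft1, which was lower than WT in Trex1-KO and with SN-011, and DESeq2 called none. They include the first enzymes of the fatty acid route, Acly and Acaca, and the terminal sterol reductase Dhcr7.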

How the data were processed

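Paired-end RNA-Seq reads were trimmed with Trimmomatic, aligned with hisat2 and assigned to genes as uniquely mapped pairs with featureCounts, per the study's methods, whereas the submitters' processing notes name HISAT2, HTSeq and the build mm10. Versions and annotation release are not given in the sources used here. The deposited values are raw counts per Ensembl gene for 54532 genes in each of 8 libraries, which the authors left unnormalized. Symbols and positions are from GENCODE mouse release M21 (GRCm38), which held 54495 of the identifiers.

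Counts were scaled by TMM, the trimmed mean of M-values (factors 0.973 to 1.04) and tested with edgeR 4.0.16 under R 4.3.3. The filterByExpr filter (minimum count 10, minimum total 15) left 14591 genes. One mean per group was fitted by quasi-likelihood to all 8 libraries (biological coefficient of variation 0.0656), and 6 contrasts were tested two-sided, with p-values adjusted after Benjamini and Hochberg over all tested genes, at 0.05. Genes past it are said to be called, and to have fallen or risen. Approximate SEs are log2 fold changes divided by the root of the F statistic, without sign. Total counts of 11845470 to 17284863 limit the precision, since 1 count was 0.0582 to 0.0849 CPM after TMM. The fit was tested on simulated data.

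Alternatives were scaling by total counts or DESeq2 size factors, a filter at 1 count, a stricter filter (CPM of 1 in 2 libraries), a replicate block, only the 2 groups compared, edgeR's exact test, DESeq2 1.42.0, a fold of at least 1.5, and each library left out in turn. Near-identical copies are alignments of at least 100 bases at 95% identity. Members, roles, other pathway lists and markers were chosen with earlier results of these data known, so their direction is not independent evidence. Every member was named, and those called among the first 4 contrasts were given in full. Of the other lists, up to 4 called genes per contrast with the smallest adjusted p were named, and Me1, Acsl3, Acsl4, Npc2, Lipa, Abca1, Scap and the markers other than Col1a1 were added after their values were seen.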

Additional observations from a re-analysis of the deposited data

How the results depend on the processing

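With 2 libraries per group, the number of members called depended on single libraries and on the processing. In Trex1-KO against WT, 11 members were called, and 11 to 13 with total counts only, DESeq2 size factors, either other filter, only the 2 groups, edgeR's exact test or the replicate block. DESeq2 called 7, a fold of at least 1.5 left 3, and leaving out 1 library gave between 1 and 12. Against WT, a fold of at least 1.5 left 2 calls with H151 and 5 with SN-011, and leaving out 1 library gave between 3 and 8 and between 2 and 17. The lowest value of each range was the fit without WT replicate 1, in which fewer genes were called over the whole data too, and the cause was not tested. No called member changed sign under any alternative. Calls among the knockout groups stayed at 0 members under every alternative run. Scd2 alone was called in all 3 comparisons with WT under every alternative except the fold of at least 1.5, which it missed with H151.

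Under scaling by total counts only, the median over all genes shifted by -0.08 on the log2 scale in Trex1-KO against WT. The median of the members was then -0.31, and 31 of 33 lay below 0. The replicate numbers are shared by all groups, but the labels do not say what they stand for. Deviations of same-numbered libraries correlated across genes between -0.0163 and 0.194, with 2 pairs in each contrast. The highest value was that of Trex1-KO+H151 against Trex1-KO. The numbers were not taken to pair the samples, though such correlations cannot exclude pairing. With the replicate block 12, 0, 0, 0, 9 and 17 members were called in the 6 contrasts, in the order Trex1-KO against WT, H151 and SN-011 against Trex1-KO, SN-011 against H151, and H151 and SN-011 against WT. Members with few counts, Fdps and Ch25h above all, are measured with low precision. For Fdps, the part of its near-identical copies in the low count was not tested.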
